A study of Mus musculus with 48 samples.

Results

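Matrix metalloproteinases and their tissue inhibitors were followed across 6 groups of mouse lungs through 10 genes, Mmp2, Mmp3, Mmp8, Mmp9, Mmp12, Mmp14, Mmp19, Timp1, Timp2 and Timp3. They were found by gene symbol, and all 10 were on the array, with 22 of its 22626 non-control probe sets, as 10 of 12393 genes. Each of 48 male C57BL/6 mice gave 1 lung array, with 8 animals a group. Diet-induced obese animals (DIO) ate a 60 kcal% fat diet from 6 weeks of age, and regular weight animals (RW) a diet of about 5 kcal% fat. From 15 weeks of age both breathed, through the nose alone, mainstream smoke (MS, the smoke drawn through a cigarette), sidestream smoke (SS, the smoke of its burning tip) or filtered air as sham controls (SC). Exposure took 5 hours a day on 8 days, given as 5 days, a pause of 2 days and 3 more days, with necropsy on the next day. The obese animals were set apart by diet as well as by weight, so diet and weight cannot be told apart. The labels' account of the diet speaks of an LPS exposure study, and no label gives LPS to any animal.

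These enzymes are zinc-dependent proteases, made as inactive proenzymes, that cut collagens, elastin and other matrix proteins as well as cytokines and cell surface proteins. The Timps bind and block the active enzymes. In smoke-exposed mouse lung the best known member is Mmp12, the macrophage elastase, whose loss protects mice from smoke-induced emphysema.

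The mean log2 signal of 8 markers of lung epithelium and endothelium, the labelled tissue, lay between 12.21 and 12.91 on every array. A set of 5 arrays (DIO-MS-1, DIO-MS-6, DIO-SC-3, DIO-SC-7 and RW-SS-6) correlated less with the rest of the series, with an average r of 0.962 to 0.982, where the remaining 43 arrays reached 0.987 or more. Some of these held markers of other tissues at high signal. DIO-SC-3 had means of 13.43 for skeletal muscle, 11.80 for squamous epithelium and 9.98 for fat markers, against at most 7.32, 5.98 and 6.79 on the 6 remaining obese air arrays. DIO-SC-7 had 11.02 for thymocyte and 12.46 for fat markers, against at most 6.21 and 6.79 on those 6. The lung marker mean was 12.50 on DIO-SC-3 and 12.21 on DIO-SC-7, against 12.72 to 12.82 on those 6. RW-SS-6 had 12.39 for fat markers, against at most 6.94 on the other 7 arrays of its group. The part of this other tissue in the values below was not tested, beyond leaving the arrays out. Values below are deposited log2 signals, ± is a standard error unless SD is written, n is 8 a group, and a gene was called at an adjusted p below 0.05 (limma, over all 12393 genes). A fold change is the log2 difference written as a ratio.

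Mainstream smoke moved 7 of the 10 genes in each diet by their brightest probe sets. Of these, 6 were higher and Timp3 was lower both times. In obese animals 7 genes were called against air (21.4% of all genes were called, 11.7% higher and 9.76% lower), with a median difference over the 10 genes of 0.79 log2 and over all genes of -0.02. In regular weight animals 7 were called (14.7% of all genes, 6.61% higher and 8.07% lower), with a median of 0.70 over the 10 genes and -0.03 over all genes. The arrays of the 2 groups did not overlap for 6 of the 10 genes in obese animals (3.61% of all genes) and for 5 of the 10 in regular weight animals (4.78%). The genes called higher in both diets were Mmp2, Mmp8, Mmp12, Mmp14, Mmp19 and Timp1. Mmp19 counts here by the brighter of its 2 probe sets, and the second was not called in either diet. By that second probe set the obese groups overlapped, with mainstream values from 6.72 and air values up to 6.93. The choice between them was not independent of the mainstream signal, as described below. Without the 5 arrays named above 8 of the 10 were called in each diet, the addition being Timp2, lower by -0.19 in obese (adjusted p = 0.0078) and -0.13 in regular weight animals (adjusted p = 0.036). Of all 12393 genes, 2229 were then called in obese animals, against 2658 with all arrays. In regular weight animals 3015 were called, against 1819 with all arrays.

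**Figure D1:**
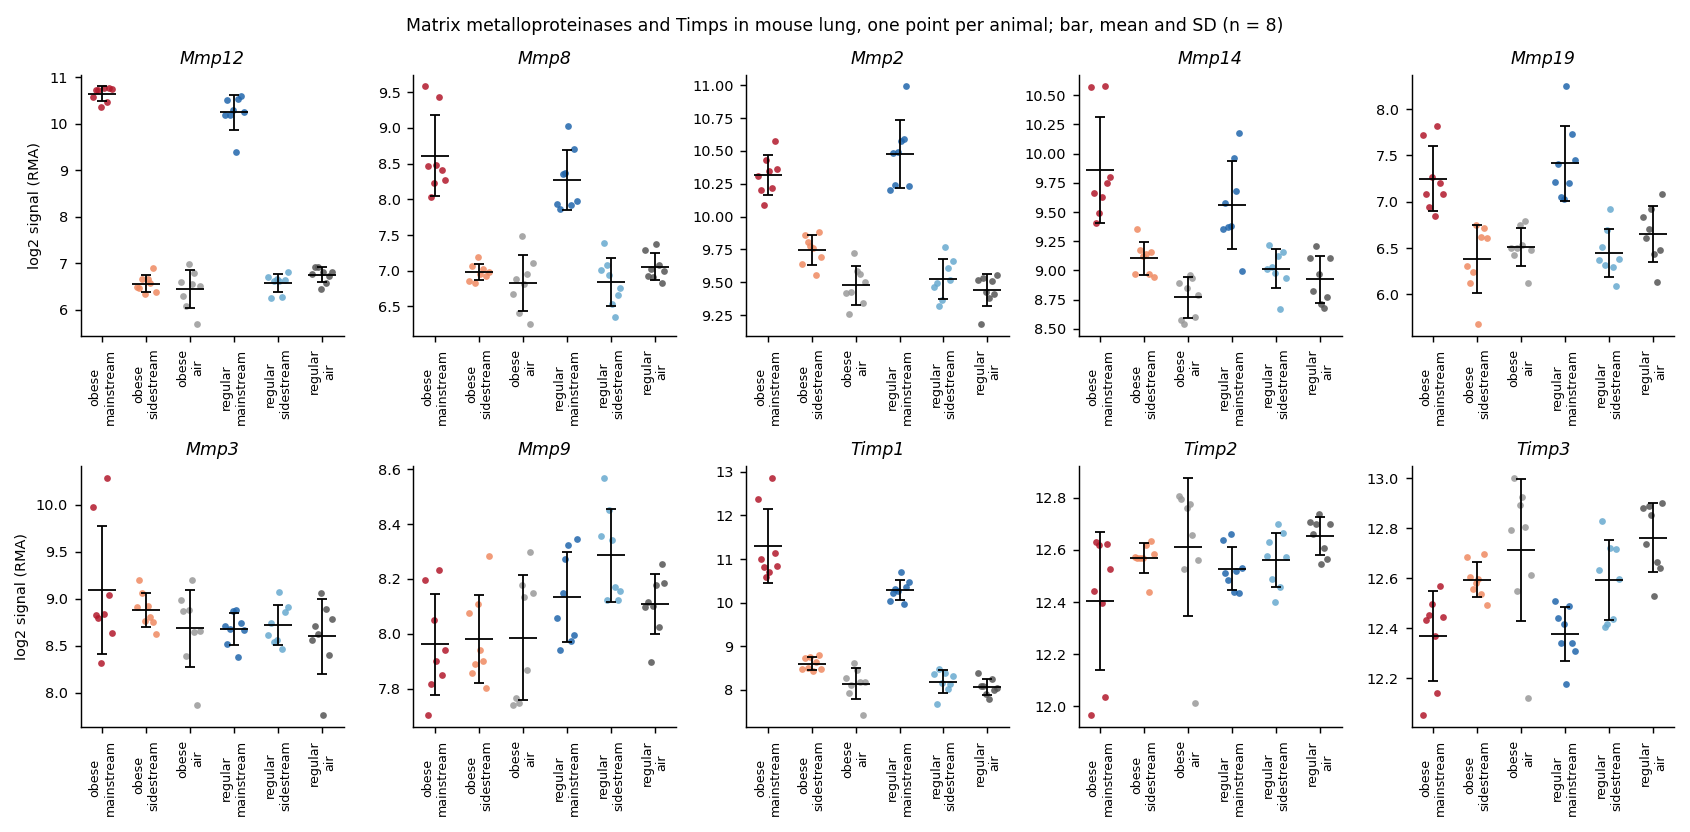
Log2 signal of each of the 10 genes on every array (points), with group means (bars) and SD, for obese and regular weight animals in mainstream smoke, sidestream smoke and air (n = 8 a group). Mmp12 averages 10.64 in obese mainstream and 6.44 in obese air animals, and 10.24 in regular weight mainstream and 6.75 in regular weight air animals.

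Mmp12 had log2 signals of 10.35 to 10.78 (median 10.72) in obese mainstream animals, against 5.69 to 6.98 (median 6.53) in obese air animals. In regular weight animals they were 9.38 to 10.59 (median 10.27) in mainstream smoke, against 6.45 to 6.92 (median 6.79) in air. Every mainstream array lay above every air array. The difference was 4.21 ± 0.13 log2, or 18.5-fold, in obese animals (adjusted p = 1.1e-28) and 3.49 ± 0.13, or 11.3-fold, in regular weight animals (adjusted p = 1.7e-25). By its difference Mmp12 ranked 6 of 12393 genes from the top in obese and 5 of 12393 in regular weight animals.

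The labels name lung as the tissue, a mix of cell types in which a change in the number of cells of a type and a change in the RNA of each cell cannot be told apart. Macrophage markers were also higher in mainstream smoke than in air: 11 of 15 were called higher and 1 lower in each diet. Of all genes, 11.7% were called higher in obese and 6.61% in regular weight animals. Ctsk, a lysosomal collagenase, was higher by 3.19 log2 in obese and 2.99 in regular weight mainstream animals. Gpnmb, a glycoprotein of lipid-laden macrophages, was higher by 2.14 in obese and 2.52 in regular weight mainstream animals. The marker called lower was Siglecf, a surface lectin of alveolar macrophages, by -0.70 in obese and -0.75 in regular weight animals. The mean log2 signal of the 15 markers was 10.62 to 10.90 in obese mainstream, against 9.81 to 9.96 in obese air animals, and 10.63 to 11.32 in regular weight mainstream, against 9.91 to 10.01 in regular weight air animals. The highest obese air value was that of DIO-SC-3. Between the mainstream groups the order differed: the markers averaged 10.75 in obese and 10.89 in regular weight animals, and Mmp12 10.64 and 10.24. The part of these cells in the Mmp12 difference was not tested.

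Mmp8, the collagenase first described in neutrophils, had 8.03 to 9.58 (median 8.44) in obese mainstream, against 6.25 to 7.49 (median 6.85) in obese air animals. The regular weight range was 7.86 to 9.03 (median 8.17) in mainstream smoke, against 6.83 to 7.37 (median 7.01) in air. The groups were apart in both diets. Mmp8 was higher by 1.79 ± 0.18 log2 in obese animals (adjusted p = 6.7e-11) and by 1.22 ± 0.18 in regular weight animals (adjusted p = 1.9e-06). Of 11 neutrophil markers measured, 3 were called higher in obese animals (Clec4d, Il1r2 and Csf3r) and 2 in regular weight animals (Clec4d and Il1r2), and none lower. Of all genes, 21.4% were called in obese animals, 11.7% of them higher by share of all genes. In regular weight animals these shares were 14.7% and 6.61%. S100a8 and S100a9, abundant transcripts of mature neutrophils, had differences of 0.29 and 0.13 in obese and 0.13 and 0.07 in regular weight animals, none of them called. The mean of the 11 markers was 7.61 to 8.50 in obese mainstream, against 7.16 to 7.80 in obese air animals, and 7.48 to 7.88 in regular weight mainstream, against 7.22 to 7.99 in regular weight air animals.

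The gelatinases Mmp2 and Mmp9, which cut denatured collagen and basement membrane collagen, went separate ways. Mmp2, an enzyme of mesenchymal cells, had 10.09 to 10.57 (median 10.33) in obese mainstream, against 9.26 to 9.72 (median 9.46) in obese air animals. Regular weight values were 10.21 to 10.99 (median 10.49) in mainstream smoke, against 9.18 to 9.56 (median 9.47) in air. Its groups did not overlap, with differences of 0.84 ± 0.08 log2 in obese animals (adjusted p = 2.9e-11) and 1.04 ± 0.08 in regular weight animals (adjusted p = 7.0e-14). Both of its probe sets were called higher, and the second gave 0.85 in obese and 0.95 in regular weight animals. The first counted as the brightest through the regular weight mainstream arrays, with a mean of 10.48 there, against 10.39 by the second. In obese mainstream animals it had 10.32, against 10.33 by the second. The choice of Mmp2 probe set was thus not independent of the mainstream signal. Of 9 fibroblast markers, obese mainstream animals had 2 called higher and 2 called lower, and regular weight mainstream animals 1 called higher. Of all genes, 21.4% were called in obese and 14.7% in regular weight animals.

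Mmp9, an enzyme of neutrophils and macrophages, lay between 7.70 and 8.23 in obese mainstream, against 7.74 to 8.30 in obese air animals. Regular weight values were 7.94 to 8.34 in mainstream smoke, against 7.90 to 8.26 in air. These ranges coincided, and the differences were -0.02 (95% interval -0.20 to 0.15) in obese and 0.03 (-0.15 to 0.20) in regular weight animals. Neither of its 2 probe sets was called.

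Mmp14, the membrane-bound enzyme that activates pro-Mmp2 at the cell surface, had 9.41 to 10.57 (median 9.71) in obese mainstream, against 8.54 to 8.97 (median 8.82) in obese air animals. The regular weight range was 8.99 to 10.18 (median 9.48) in mainstream smoke, against 8.68 to 9.21 (median 8.90) in air. In obese animals the groups were apart, and in regular weight animals 7 of 8 mainstream arrays lay above all air arrays. Mmp14 was higher by 1.09 ± 0.14 log2 in obese animals (adjusted p = 2.0e-08) and by 0.64 ± 0.14 in regular weight animals (adjusted p = 0.00079).

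Mmp19, a secreted enzyme that cuts basement membrane proteins, had 6.85 to 7.82 (median 7.15) in obese mainstream, against 6.13 to 6.79 (median 6.50) in obese air animals. Regular weight animals had 7.03 to 8.25 (median 7.31) in mainstream smoke, against 6.13 to 7.08 (median 6.66) in air, where 6 of 8 mainstream arrays lay above all air arrays. It was higher by 0.73 ± 0.16 log2 in obese animals (adjusted p = 0.00039) and by 0.77 ± 0.16 in regular weight animals (adjusted p = 0.00048). A second probe set gave 0.32 in obese and 0.24 in regular weight animals and was not called. The first counted as the brightest through the mainstream arrays: its group means were 7.25 in obese and 7.42 in regular weight mainstream animals, against 6.99 in both by the second, while in air it had 6.51 in obese and 6.65 in regular weight animals, against 6.67 and 6.74 by the second. The choice of probe set was thus not independent of the mainstream signal, and the Mmp19 call rests on it.

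Mmp3, or stromelysin 1, which cuts proteoglycans and activates other proenzymes, had 8.31 to 10.29 (median 8.83) in obese mainstream, against 7.87 to 9.20 (median 8.76) in obese air animals. The regular weight range was 8.38 to 8.88 (median 8.69) in mainstream smoke, against 7.76 to 9.06 (median 8.67) in air. The groups overlapped and neither difference was called, with 0.40 (95% interval 0.03 to 0.78, adjusted p = 0.12) in obese and 0.08 (-0.29 to 0.46, adjusted p = 0.83) in regular weight animals.

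The 3 inhibitors split. Timp1, an inhibitor that inflammatory cytokines induce, had 10.59 to 12.87 (median 10.92) in obese mainstream, against 7.41 to 8.61 (median 8.17) in obese air animals. Regular weight animals had 9.98 to 10.71 (median 10.29) in mainstream smoke, against 7.80 to 8.39 (median 8.07) in air. Every mainstream array was above every air array, by 3.15 ± 0.20 log2 or 8.87-fold in obese animals (adjusted p = 2.4e-17) and by 2.23 ± 0.20 or 4.68-fold in regular weight animals (adjusted p = 5.4e-12).

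Timp3, the inhibitor that stays bound to the matrix, went the other way. It had 12.05 to 12.57 (median 12.44) in obese mainstream, against 12.12 to 13.00 (median 12.80) in obese air animals, and DIO-SC-7 was the lowest obese air array. Regular weight animals had 12.18 to 12.51 (median 12.38) in mainstream smoke, against 12.53 to 12.90 (median 12.80) in air, with no overlap. The difference was -0.34 ± 0.08 log2 in obese animals (adjusted p = 0.0022, and 0.069 with the 2 groups fitted alone) and -0.38 ± 0.08 in regular weight animals (adjusted p = 0.0012). All 4 Timp3 probe sets were called lower in both diets, with differences of -0.53 to -0.34 in obese and -0.79 to -0.38 in regular weight animals.

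Timp2, a widely expressed inhibitor that also takes part in the activation of pro-Mmp2 by Mmp14, had 11.96 to 12.63 (median 12.48) in obese mainstream, against 12.01 to 12.81 (median 12.71) in obese air animals. Regular weight animals had 12.44 to 12.66 (median 12.51) in mainstream smoke, against 12.55 to 12.74 (median 12.68) in air. By its brightest probe set it was not called, with -0.21 ± 0.08 (adjusted p = 0.064) in obese and -0.13 ± 0.08 (adjusted p = 0.34) in regular weight animals. Of its 6 probe sets, all with negative differences, 1 was called lower in obese animals (18.2% of all probe sets were called) and 3 in regular weight animals (14.2%). With the mean of the 6 probe sets Timp2 was called lower, by -0.21 in obese (adjusted p = 0.020) and -0.23 in regular weight animals (adjusted p = 0.015).

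**Figure D2:**
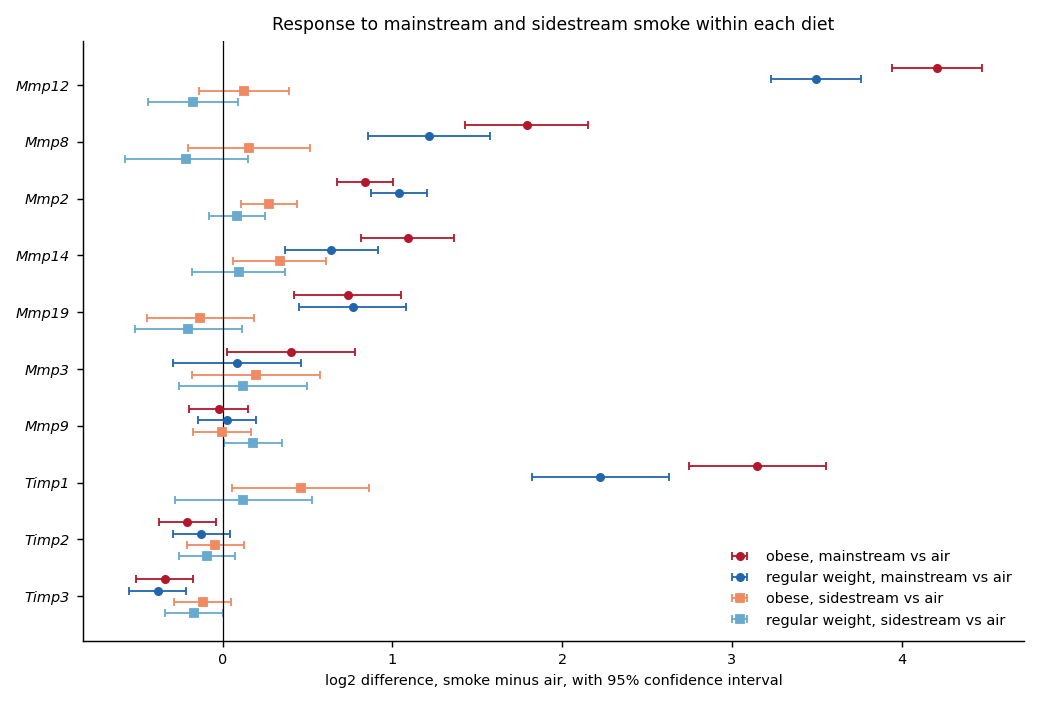
Log2 difference of each of the 10 genes, with its unadjusted 95% interval, for mainstream and for sidestream smoke against air in obese and in regular weight animals. Mainstream differences run from 4.21 for Mmp12 to -0.38 for Timp3, and no sidestream difference exceeds 0.46 in size.

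Mmp12, Mmp8 and Mmp3 lie in a run of 10 metalloproteinase genes on chromosome 9, in the order Mmp13, Mmp12, Mmp1b, Mmp3, Mmp1a, Mmp10, Mmp8, Mmp27, Mmp20 and Mmp7, with no other protein-coding gene between them in RefSeq (GRCm38.p6). Of these, 9 had a probe set with that symbol, and Mmp27 was not analysed here. Besides Mmp12 and Mmp8, Mmp13, a collagenase of connective tissue, was called higher in mainstream smoke when all arrays were used. It had 3.70 to 6.70 (median 4.40) in obese mainstream, against 3.34 to 4.00 (median 3.75) in obese air animals. Among regular weight animals it had 4.21 to 6.06 (median 4.69) in mainstream smoke, against 3.65 to 4.39 (median 3.85) in air. The difference was 1.10 in obese (adjusted p = 0.0032) and 0.87 in regular weight animals (adjusted p = 0.030). The highest obese value was that of DIO-MS-6, and without DIO-MS-1 and DIO-MS-6 the obese difference was 0.49 and no longer called (adjusted p = 0.083). The air means, 3.72 in obese and 3.94 in regular weight animals, were dim: 2.87% of all genes in obese and 4.09% in regular weight air animals had a lower mean. Whether Mmp13 was above background there was not tested. The other 6 measured neighbours, Mmp1b, Mmp3, Mmp1a, Mmp10, Mmp20 and Mmp7, were not called in either diet.

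**Figure D3:**
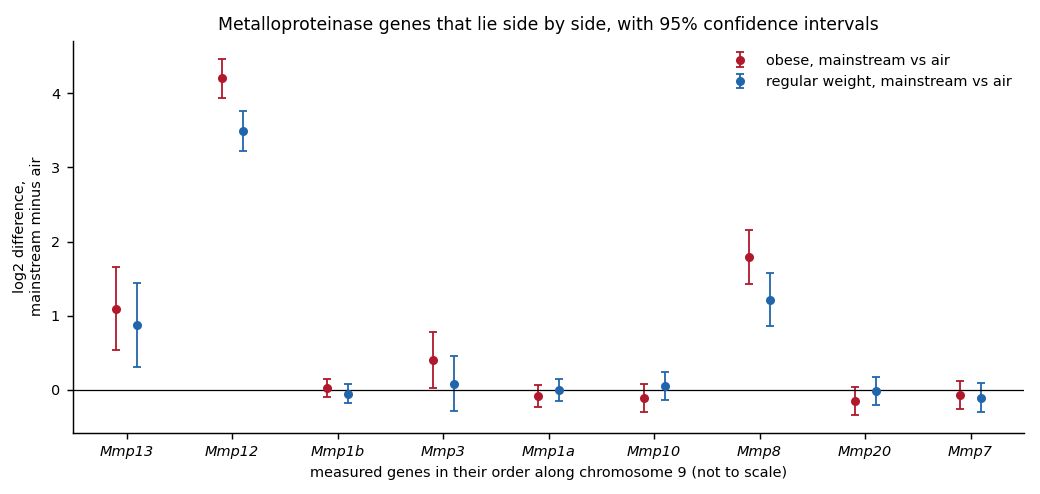
Log2 difference of mainstream smoke against air, with unadjusted 95% interval, for the 9 measured metalloproteinase genes of the chromosome 9 run in their RefSeq order (not to scale), in obese and regular weight animals. Mmp13, Mmp12 and Mmp8 are called higher in both diets with all arrays, and the other 6 genes have differences between -0.15 and 0.40.

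Promoters from 250 bases before to 50 after a start (RefSeq, GRCm38.p6) were given for 7 of the 10 genes, with 2 starts for Mmp12. Entries for Mmp2, Mmp9 and Mmp19 were not used here. The motif TGANTCA, the core of the AP-1 site long known from metalloproteinase promoters, reads the same on both strands and was in 7.81% of all 32851 promoters. TGAGTAA or its reverse complement was in 2.68%, and TATAAA or its reverse complement in 13.6%. No matches overlapped in the promoters described. The promoters below show a called gene and an uncalled neighbour with the same TGAGTCA, and Timp1 with TGAGTAA. Capitals mark these motifs, and all 3 are on the plus strand. TATAAA is left unmarked.
Mmp12, second start, chr9:7347124-7347423: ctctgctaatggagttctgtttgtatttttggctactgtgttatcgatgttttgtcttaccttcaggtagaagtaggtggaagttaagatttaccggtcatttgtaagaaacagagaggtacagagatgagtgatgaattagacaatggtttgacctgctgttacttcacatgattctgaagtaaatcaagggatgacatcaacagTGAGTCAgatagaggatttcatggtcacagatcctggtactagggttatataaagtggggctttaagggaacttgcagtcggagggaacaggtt
Mmp3, chr9:7445572-7445871: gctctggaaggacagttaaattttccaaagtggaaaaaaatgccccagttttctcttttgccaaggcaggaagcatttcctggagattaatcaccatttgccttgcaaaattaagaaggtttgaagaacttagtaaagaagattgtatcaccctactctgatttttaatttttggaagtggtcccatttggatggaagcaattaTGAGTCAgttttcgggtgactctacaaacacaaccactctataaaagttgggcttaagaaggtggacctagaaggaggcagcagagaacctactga
Timp1, chrX:20869916-20870215: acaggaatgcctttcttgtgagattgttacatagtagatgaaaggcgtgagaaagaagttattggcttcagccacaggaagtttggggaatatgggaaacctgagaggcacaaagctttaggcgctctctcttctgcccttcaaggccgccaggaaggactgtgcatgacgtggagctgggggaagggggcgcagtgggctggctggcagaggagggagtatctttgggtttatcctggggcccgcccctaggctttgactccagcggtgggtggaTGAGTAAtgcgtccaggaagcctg
In Mmp12 the TGAGTCA began 44 bases before the start and in Mmp3 46 bases before it. The first Mmp12 start, at chr9:7344147-7344446, and the Mmp8 promoter, at chr9:7558179-7558478, had no TGANTCA. It was also in the promoters of Mmp13, Mmp1b, Mmp1a, Mmp10, Mmp20 and Mmp7, of which the mainstream difference of Mmp13 alone was called. TATAAA or its reverse complement was in the second Mmp12, the Mmp3 and the Mmp8 promoters. It was also in those of Mmp13, Mmp1b, Mmp1a, Mmp10, Mmp20 and Mmp7. The TGAGTAA of Timp1 lay 26 bases after the start. Mmp14, Timp2 and Timp3 had none of the 3 motifs in this window. A match of letters was not tested as a binding site.

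Sidestream smoke left these genes close to air. In regular weight animals 0 of the 10 genes were called against air (2.17% of all genes), by limma, and 1 had an unadjusted p below 0.05 (Mmp9, 0.18 ± 0.09 log2, adjusted p = 0.29). The second Mmp9 probe set gave -0.02 there. Timp3 had -0.17 ± 0.08 (adjusted p = 0.32) by its brightest probe set, and 2 of its 4 probe sets were called lower when every probe set was tested (2.3% of all probe sets), each by -0.37. In obese animals 1 of the 10 genes was called (6.85% of all genes). Mmp2 had 9.56 to 9.89 (median 9.77) in obese sidestream, against 9.26 to 9.72 (median 9.46) in obese air animals, and 5 of 8 sidestream arrays lay above all air arrays. It was higher by 0.27 ± 0.08 log2 (adjusted p = 0.033). With every probe set tested, 1 of the 2 Mmp2 probe sets was called, and their differences were 0.27 and 0.28. Without DIO-SC-3 and DIO-SC-7 the difference by its brightest probe set was 0.24 with an adjusted p of 0.096, so the call was lost. Without them Timp3 was called lower, by -0.24 (adjusted p = 0.035), against -0.12 (adjusted p = 0.41) with all arrays.

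Timp1 in obese animals was 8.43 to 8.80 (median 8.57) in sidestream smoke, against 7.41 to 8.61 (median 8.17) in air, a difference of 0.46 ± 0.20 that was not called (adjusted p = 0.16). Mmp14 gave 0.34 ± 0.14 there (adjusted p = 0.12), with 7 of 8 sidestream arrays above all air arrays, and was called with the 2 groups fitted alone (adjusted p = 0.026). Mmp12 had a difference of 0.12 (95% interval -0.14 to 0.39) in obese and -0.18 (-0.44 to 0.09) in regular weight animals. Of 15 matrix genes that encode substrates of these enzymes, Eln, which encodes elastin, was the 1 called in sidestream smoke in each diet. Of all genes, 6.85% were called in obese and 2.17% in regular weight animals. It was higher by 0.76 in obese (adjusted p = 0.0015) and 0.82 in regular weight animals (adjusted p = 0.0014).

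The difference between the smokes was tested directly. Mainstream against sidestream smoke called 6 of the 10 genes higher in obese animals (16.8% of all genes were called, 8.83% higher) and 6 in regular weight animals (9.77%, 6.05% higher), and none lower. They were again Mmp2, Mmp8, Mmp12, Mmp14, Mmp19 and Timp1. With every probe set tested, 1 of the 2 Mmp14 probe sets was called in regular weight animals. Mmp12 had 10.35 to 10.78 in obese mainstream, against 6.34 to 6.90 in obese sidestream animals, a difference of 4.08 ± 0.13 log2. In regular weight animals it had 9.38 to 10.59 in mainstream, against 6.26 to 6.81 in sidestream smoke, a difference of 3.67 ± 0.13. Timp1 was higher by 2.69 ± 0.20 in obese and 2.11 ± 0.20 in regular weight mainstream animals. Timp3 was not called by its brightest probe set, with -0.22 ± 0.08 (adjusted p = 0.060) in obese and -0.22 ± 0.08 (adjusted p = 0.098) in regular weight animals. With every probe set tested, 1 of 4 for Timp3 and 1 of 6 for Timp2 were called lower in obese animals. In regular weight animals 0 of these were called. The sidestream and air groups are each set against the same mainstream arrays here.

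In air and in sidestream smoke none of the 10 genes passed the threshold between the diets. In air, 0 of the 10 were called between obese and regular weight animals by limma (8.28% of all genes), and 1 had an unadjusted p below 0.05. This was Mmp12, with 5.69 to 6.98 (median 6.53) in obese, against 6.45 to 6.92 (median 6.79) in regular weight animals, a difference of -0.31 ± 0.13 (adjusted p = 0.14). In sidestream smoke 0 of the 10 were called by limma (0.976% of all genes), and 3 had an unadjusted p below 0.05. They were Mmp9 (-0.30 ± 0.09, adjusted p = 0.067, with 7 of 8 obese arrays below all regular weight arrays), Mmp2 (0.22 ± 0.08, adjusted p = 0.23) and Timp1 (0.41 ± 0.20, adjusted p = 0.49). With these 2 groups fitted alone Mmp9 and Timp1 were called, with adjusted p of 0.039 and 0.028.

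In mainstream smoke 1 of the 10 genes was called between the diets (1.21% of all genes). Timp1 had 10.59 to 12.87 (median 10.92) in obese, against 9.98 to 10.71 (median 10.29) in regular weight animals, and 6 of 8 obese arrays lay above all regular weight arrays. It was higher in obese animals by 0.998 ± 0.20 log2 (adjusted p = 0.0051). Without DIO-MS-1 and DIO-MS-6, a choice made after their values were seen, it was higher by 0.55 (adjusted p = 0.026), and with the 2 groups fitted alone it was not called (adjusted p = 0.14).

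Whether diet changed the response to smoke was tested as the obese response minus the regular weight response. For mainstream smoke 1 of the 10 genes was called (0.888% of all genes). Mmp12 responded more in obese animals, by 0.71 ± 0.19 log2 (adjusted p = 0.048), with a higher mean in obese mainstream animals (10.64, against 10.24 in regular weight) and a lower mean in obese air animals (6.44, against 6.75 in regular weight). The call was lost without DIO-SC-3 and DIO-SC-7 (0.53, adjusted p = 0.11), without RW-MS-5, the lowest mainstream array (0.59, adjusted p = 0.072), and with each array centred on its median (0.69, adjusted p = 0.058). With every probe set tested, on all arrays, the 1 probe set of Mmp12 was not called either. Timp1 had 0.92 ± 0.28 (adjusted p = 0.099), Mmp8 0.57 ± 0.25 (adjusted p = 0.29) and Mmp14 0.45 ± 0.19 (adjusted p = 0.26), none of them called. For sidestream smoke 0 of the 10 were called by limma (0.654% of all genes), and 0 had an unadjusted p below 0.05.

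The 8 obese mainstream arrays were not alike. On DIO-MS-1 and DIO-MS-6, 6 of the 10 genes were above all the other 6 arrays of the group and 2 below. Timp1 had 12.38 on DIO-MS-1 and 12.87 on DIO-MS-6, against 10.59 to 11.14 on the other 6. Mmp3 had 9.98 and 10.29, against 8.31 to 9.04. Mmp8 had 9.58 and 9.43, against 8.03 to 8.48. Mmp14, Mmp19 and Mmp9 were above the other 6 arrays as well, while Timp2 (11.96 and 12.03, against 12.39 to 12.63) and Timp3 (12.05 and 12.14, against 12.37 to 12.57) were below them. Mmp12 (10.57 and 10.47, against 10.35 to 10.78) and Mmp2 lay within the other 6. The mean of 5 interferon response genes was 12.16 and 11.94 on DIO-MS-1 and DIO-MS-6, against 7.12 to 7.51 on the other 6, and the mean of 11 neutrophil markers was 8.14 and 8.50, against 7.61 to 7.77. The part of these markers was not tested.

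Without DIO-MS-1 and DIO-MS-6 the obese mainstream difference from air was 4.25 for Mmp12, 2.71 for Timp1, 1.49 for Mmp8, 0.86 for Mmp2, 0.85 for Mmp14, 0.56 for Mmp19 and -0.25 for Timp3, all still called. The uncalled difference of Mmp3 was then 0.06, against 0.40 with all arrays.

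**Figure D4:**
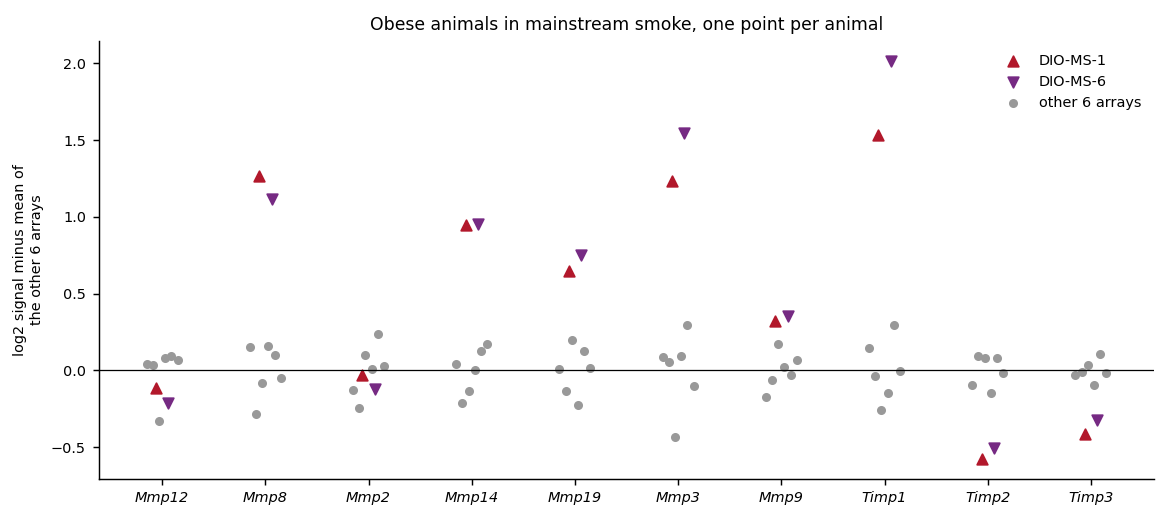
Log2 signal of the 10 genes on each of the 8 obese mainstream arrays, as the difference from the mean of the 6 arrays other than DIO-MS-1 and DIO-MS-6. Timp1 is 1.53 and 2.02 and Mmp3 1.23 and 1.55 above that mean on DIO-MS-1 and DIO-MS-6, and Mmp12 is -0.11 and -0.21 from it.

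RW-MS-5 was a regular weight mainstream array on which the genes diverged from each other. It had the lowest Mmp12 (9.38, against 10.19 to 10.59 on the other 7) and the lowest Timp3 (12.18, against 12.31 to 12.51). It also had the highest Mmp8 (9.03, against 7.86 to 8.71), Mmp19 (8.25, against 7.03 to 7.73) and Timp1 (10.71, against 9.98 to 10.47). Its mean of the 5 interferon response genes was 6.58, below the 6.99 to 9.76 of the other 7. It was also the lowest of the 8 arrays for the inducing factors (7.85, against 7.90 to 8.16), smooth muscle (9.82, against 9.90 to 10.24), skeletal muscle (5.74, against 6.00 to 6.34), squamous epithelium (4.81, against 5.00 to 5.30) and fat markers (5.43, level with the lowest of the other 7). For macrophage markers (11.09, against 10.63 to 11.32) and matrix genes (10.41 to 11.21 on the other 7) it was second highest. The part of these markers was not tested.

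Other genes of the pathway, listed with earlier results of these data known, gave the setting. Of 11 other metalloproteinases measured, Mmp13 alone was called in mainstream smoke with all arrays, in both diets. Of 14 activators and other inhibitors, the call was higher for 1 and lower for 2 in obese animals, and higher for 2 in regular weight animals. Of all genes, 21.4% were called in obese and 14.7% in regular weight animals, so this list was called about as often. By direction the shares were 11.7% higher and 9.76% lower in obese, and 6.61% higher and 8.07% lower in regular weight animals. The same shares belong beside the next 3 lists with all arrays. Lrp1, a receptor that clears enzyme-inhibitor complexes, was higher by 0.41 in obese and 0.30 in regular weight animals. Pcsk6, a proprotein convertase, and Plat, a plasminogen activator, were lower in obese animals (Pcsk6 by -0.69, Plat by -0.35), and Plaur, the urokinase receptor, was higher in regular weight animals (0.36). Uncalled, the means went the same way in the other diet. Regular weight mainstream animals had 7.33 for Pcsk6 and 9.05 for Plat, against 7.63 and 9.25 in air. Obese mainstream animals had 9.50 for Plaur, against 9.22 in air. Among obese air arrays DIO-SC-3 was highest for Pcsk6 (8.71) and DIO-SC-7 lowest for Plaur (8.13).

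Of 13 ADAM and ADAMTS proteases, the related membrane and secreted enzymes, 7 were called higher in obese animals, and 5 higher and 1 lower in regular weight animals. Without the 5 arrays of lower correlation, 4 were called higher in obese animals, and 6 higher and 1 lower in regular weight animals. Adam8, a protease of myeloid cells, was higher by 0.96 in obese and 0.84 in regular weight animals. Adamts4, an aggrecan-cutting enzyme, was higher in obese animals (0.69), where its difference in regular weight animals was 0.30 (adjusted p = 0.20). Adamts10, a secreted protease, was lower in regular weight animals (-0.27).

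Of 15 matrix genes that encode substrates of these enzymes, 11 were called higher and 0 lower in each diet, with a median of 0.44 log2 in obese and 0.41 in regular weight animals. Col3a1, a fibrillar collagen, was higher by 1.05 in obese and 0.81 in regular weight animals, and Col5a2, a minor fibrillar collagen, by 0.94 in obese and 0.77 in regular weight animals. Tnc, a matrix protein of injured tissue, was higher by 1.17 in regular weight animals, and had 0.61 (adjusted p = 0.090) in obese animals. Of 20 cytokines and transcription factors known to induce metalloproteinases, obese animals had 8 called higher and 2 lower, and regular weight animals 3 higher and 2 lower. The mean of this list was 8.61 on DIO-MS-1 and 8.72 on DIO-MS-6, against 7.91 to 8.15 on the other 6 obese mainstream arrays, while regular weight mainstream arrays had 7.85 to 8.16. Without DIO-MS-1 and DIO-MS-6, obese animals had 7 called higher and 1 lower, and regular weight animals 6 higher and 3 lower. Il6, an inflammatory cytokine, was higher by 2.16 in obese and 1.35 in regular weight animals, and Csf2, a macrophage growth factor, by 1.46 in obese and 0.91 in regular weight animals. Il1b, an inflammatory cytokine, was higher by 1.33 in obese animals, and had 0.50 (adjusted p = 0.27) in regular weight animals. Without DIO-MS-1 and DIO-MS-6 the obese differences were 1.21 for Il6, 1.32 for Csf2 and 0.59 for Il1b, and the 0.50 of Il1b in regular weight animals was then called (adjusted p = 0.0035). Junb, an AP-1 subunit, was higher in obese animals with all arrays (0.55) and not called without those arrays (0.30, adjusted p = 0.056), while Fos, another subunit, was called in neither diet (0.44 in obese, 0.12 in regular weight animals).

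Markers of other cell types moved in some of these comparisons as well. All 7 smooth muscle markers were called lower in obese mainstream against obese air animals and 0 of 7 in regular weight animals, and 4 of 7 in the test of the diet difference. In obese against regular weight air animals 6 of the 7 were called higher, with a median of 0.44, and in obese against regular weight mainstream animals 0 of 7 were called (median -0.19). Their list mean was 9.08 to 10.17 in obese mainstream, against 10.23 to 11.07 in obese air animals, where 11.07 was DIO-SC-3. Without DIO-SC-3 and DIO-SC-7, 7 of 7 were again lower in obese mainstream against obese air animals, and 4 of 7 higher in obese against regular weight air animals. Of 6 skeletal muscle markers 4, and of 5 squamous epithelium markers 2, were called lower in obese mainstream against obese air animals, of which DIO-SC-3 held these markers at high signal. The skeletal muscle mean was 6.04 in obese mainstream animals, against 7.60 in obese air and 6.06 in regular weight air animals. Without DIO-SC-3 and DIO-SC-7 the counts were 2 of 6 for skeletal muscle and 0 of 5 for squamous epithelium markers. Of 8 lung epithelial and endothelial markers 4 were called lower in regular weight mainstream animals and 0 in obese mainstream animals, where 3 were called without DIO-SC-3 and DIO-SC-7. Their part in the differences of the 10 genes was not tested.

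The genes most like Mmp12 and Timp1 were sought over 5 group differences from regular weight air animals, by the root mean square distance in log2. For Mmp12 they were Ly6i (0.23), a Ly6 family surface protein, Cxcl1 (0.42), a neutrophil chemokine, Ctsk (0.55) and Slc26a4 (0.60), an anion exchanger. Ly6i was 4.04 above regular weight air animals in obese mainstream and 3.43 in regular weight mainstream animals. For Timp1 they were Ccl2 (0.22), a monocyte chemokine, Cxcl10 (0.23), an interferon-induced chemokine, Steap4 (0.27), a metalloreductase, and Orm1 (0.28), an acute phase protein. Cxcl10 was 3.27 above regular weight air animals in obese mainstream and 1.97 in regular weight mainstream animals. All 5 differences share the regular weight air arrays. The obese mainstream means include DIO-MS-1 and DIO-MS-6, on which Timp1 and the interferon response genes lay above the rest of the group. Likeness without these arrays was not tested.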

How the data were processed

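Total RNA of 48 mouse lungs was measured on 1 Affymetrix array an animal. The authors deposited log2 values made by RMA (background correction, quantile normalization and summary of probes), per the submitters' processing notes. Its version is not given in the sources. The number of arrays limits the precision. Groups came from the titles. In both regular weight smoke groups the source labels give animals 7 and 8 the numbers 5 and 6 again. The log2 differences between arrays that share such a number had SDs of 0.23 to 0.42, above the 0.18 of the most alike pair of these groups, and all were kept as separate animals.

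Of 22690 probe sets 64 controls were left out. Probe sets with 1 symbol in the array's annotation (20380) were used, the brightest standing for its gene, which left 12393 genes. No dim gene was left out. Group means were fitted over all 48 arrays with limma 3.58.1 in R 4.3.3 (lmFit, eBayes), with 11 two-sided contrasts, each Benjamini-Hochberg adjusted over all genes. A second fit held each of 22626 probe sets. The fit was tested on simulated data. Figures and counts were made in Python 3.11.15.

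The 10 genes and the lists were chosen with earlier results of these data known. All 10 genes are named in each comparison where they add a value, of each list the called genes with the largest changes (up to 4), and for likeness the 4 nearest genes. Where a gene of a list that was not called stands beside one that was, it was chosen after its values were seen. Alternatives were other probe set summaries, array centring, a fit with trend and robust, a filter on dim genes, the groups alone, a replicate block and arrays left out.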

Additional observations from a re-analysis of the deposited data

Results flagged for a closer look

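Of 60 pairs of a gene and a group, 4 held an array whose gap to its nearest neighbour was large for the range of its group, and chance gives about 1 in 20. Mmp2 was low on RW-SC-2, at 9.18. Mmp12 was low on RW-MS-5, at 9.38. Timp2 was low on DIO-SS-6, at 12.44, and on DIO-SC-7, at 12.01. The mainstream response of Mmp12 differed between the diets by 0.71 log2 (limma, adjusted p = 0.048), which the test of that difference marked. That call was lost under several alternatives, given below.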

How the results depend on the processing

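Of 929 values of a gene in a comparison under an alternative, 858 kept their direction and side of the threshold, 22 were called only under the alternative and 10 only under the reported settings. Another 39 changed sign without a call in either, with sizes of up to 0.21, and no called value changed sign. The count of the 10 genes called moved by over 1.5 times as follows, and the cause was not tested. For obese sidestream against air it was 2, against 1, without the 5 arrays of lower correlation and with the groups alone. For obese against regular weight mainstream animals it was 0, against 1, with the groups alone. For obese against regular weight sidestream animals it was 2, against 0, without the 5 arrays and with the groups alone, and 1 with dim genes left out and with the replicate block. For the diet difference in the mainstream response it was 0, against 1, with arrays centred, without the 5 arrays, without DIO-SC-3 and DIO-SC-7, without RW-MS-5, with the groups alone and with the replicate block. No clear pairing of the animals by number was seen. Of 120 same-number pairs 42 correlated above 0.1 (median 0.04, lowest -0.39), and 6 of 48 arrays correlated best with their own number. The 840 other pairs had a median of -0.008, and their share above 0.1 was not computed. A weaker shared effect of the numbers was not tested by these values. The block gave Mmp12 0.71 (adjusted p = 0.083) for the diet difference and Mmp9 -0.30 (adjusted p = 0.047) between sidestream groups.

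Counts over all genes moved by over 1.5 times in these cases. With the groups alone, obese against regular weight air gave 312 against 1026, obese mainstream against air 1178 against 2658, obese sidestream against air 380 against 849, obese against regular weight mainstream 47 against 150, sidestream 415 against 121, and the mainstream diet difference 35 against 110. Without the 5 arrays, regular weight mainstream against air gave 3015 against 1819, sidestream against air 581 against 269, mainstream against sidestream 2116 against 1211, obese against regular weight sidestream 371 against 121, and the sidestream diet difference 155 against 81. Without DIO-MS-1 and DIO-MS-6, obese mainstream gave 1698 against air, 857 against sidestream (2086 with all arrays) and 51 against regular weight mainstream. Without RW-SS-6, regular weight sidestream gave 157 against air and obese against regular weight sidestream 52. Without RW-MS-5, obese against regular weight mainstream gave 95. Centring the arrays moved the share called higher by over 10 points: 962 of 1719 against 819 of 1819 in regular weight mainstream, 157 of 304 against 86 of 269 in regular weight sidestream, 69 of 193 against 76 of 150 between mainstream groups, and 48 of 94 against 73 of 110 for the mainstream diet difference. Alternatives that leave out named pairs of arrays or RW-SS-6 or RW-MS-5 were chosen after seeing the data, and the 5 arrays were known from an earlier look.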
